A study of Homo sapiens with 4 samples.

Results

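The mitochondrial ribosomal protein genes encode the protein subunits of the ribosome inside mitochondria, and they carry the symbols MRPL for the large and MRPS for the small subunit. They were taken as all protein-coding genes of the deposited table whose symbol, by GENCODE release 29, was MRPL or MRPS followed by a number, and which reached 1 FPKM in 2 or more of the 4 libraries. FPKM is a count of sequenced fragments scaled to gene length and to the fragments of the library. Of 78 genes with such a symbol among the 32479 in the table, 75 met this minimum, 47 of the large and 28 of the small subunit. They belong to the 12838 genes of the table that met the same minimum, which serve below as all measured genes.

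RNA was sequenced from 2 wild-type human liver cancer lines, HepG2, a hepatoblastoma-derived line, and PLC/PRF/5, a hepatoma line with integrated hepatitis B virus DNA. Each line was kept untreated for 24 h or treated for 24 h with PF-429242 at 20 uM, which inhibits site-1 protease, the Golgi enzyme that makes the first, lumenal cut in the sterol regulatory element-binding proteins and ATF6, before site-2 protease frees them from the membrane. The question for the ribosomal protein genes was whether their transcripts differ after the inhibitor, whether the large and small subunit differ, and whether the lines differ. There was 1 library a group, so no replicate spread can be given, and neither line stands for liver tissue. All 8 hepatocyte markers were detected in every library, from 6.83 FPKM for transthyretin (TTR) in the PLC/PRF/5 control to 2976 FPKM for alpha-fetoprotein (AFP) in the HepG2 control. Of 10 markers of endothelial, blood and stromal cells, 3 (PECAM1, LYZ and ACTA2) met the minimum, 5 were below it, and PTPRC and COL1A2 were not analysed here.

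Mammalian mitochondria translate a small set of membrane proteins of the respiratory chain and ATP synthase on ribosomes of their own. The ribosomal RNAs come from the mitochondrial genome, while every protein subunit is encoded in the nucleus, made in the cytosol and imported. Some subunits descend from bacterial ribosomal proteins, and others were added in the mitochondrial lineage and have no bacterial counterpart.

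The libraries held between 16722204 and 21387301 fragments. Transcripts of the mitochondrial genome took 16.6% of fragments in the HepG2 control and 27.6% in treated HepG2, and 21.3% and 28.2% in the PLC/PRF/5 pair. Since FPKM divides by all fragments, a larger mitochondrial share lowers the FPKM of nuclear genes, and the median log2 ratio of treated over control (FPKM + 1) over all measured genes was -0.16 in HepG2 and -0.12 in PLC/PRF/5. Treated PLC/PRF/5 stood apart in its mitochondrial ribosomal RNA, at 0.447% of fragments against 2.59% to 4.90% in the other 3 libraries. Values are therefore given on the deposited scale and, where it matters, over the fragments of nuclear genes alone. In bulk RNA of this kind, fewer cells and less RNA per cell cannot be told apart.

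The promoters of these genes are given first, so that their shared letters can be read beside the levels. Of the 75 genes, 66 had RefSeq promoter windows (GRCh38.p14, 250 bases before to 50 after the annotated start). The ETS-type motif CCGGAAG, the core bound by the GABP factor, was found on either strand in 28 of the 66 genes, or 42.4%, against 23.8% of 8569 measured nuclear protein-coding genes with windows. Counted by window, it was in 37.8% of the 82 windows of these genes and in 10.3% of all 35116 windows, measured genes or not. It was found in 40.0% of large and 46.2% of small subunit genes. The YY1 motif was found in 11 genes (16.7% against 3.59%), and in 8 of these it reached past the start into the transcribed part. The motif of NRF1, a regulator of nuclear genes for mitochondria, was present in 13.6% of the genes and 14.3% of measured genes. The SP1 motif GGGCGGG was in 33 of the 66 genes against 62.3%, and the E-box CACGTG in 13.6% against 12.9%. The sterol response element TCACNCCAC was found in 2 of the 66 genes, or 3.03%, against 1.42%. Both strands were searched for every motif and matches of different motifs may overlap. A match describes letters in a window, not a bound site. The 5 promoter stretches printed here were cut before the first annotated exon, with matched letters in capitals: ETS type in MRPL20, MRPL58, MRPS18A and MRPS10, NRF1 in MRPL17, and the SP1 motif or its reverse complement in MRPL17, MRPS18A and MRPS10. MRPL17 and MRPL20 are shown because both were among the lowest after treatment, and the others because they hold the ETS-type motif in genes of either subunit label. MRPS10, a bacterial-type small subunit protein shown for its promoter, was at 24.1, 20.8, 27.4 and 25.4 FPKM in control and treated HepG2 and in control and treated PLC/PRF/5.
MRPL17, chr11:6683402-6683590, minus strand: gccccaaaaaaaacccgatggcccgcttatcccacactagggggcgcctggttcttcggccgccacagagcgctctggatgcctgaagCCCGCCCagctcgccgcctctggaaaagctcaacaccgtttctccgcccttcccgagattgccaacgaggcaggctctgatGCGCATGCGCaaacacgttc
MRPL20, chr1:1407314-1407543, minus strand: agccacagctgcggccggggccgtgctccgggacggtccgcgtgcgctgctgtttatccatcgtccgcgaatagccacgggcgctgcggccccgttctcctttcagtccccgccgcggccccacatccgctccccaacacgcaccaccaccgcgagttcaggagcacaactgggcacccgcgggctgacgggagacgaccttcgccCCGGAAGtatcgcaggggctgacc
MRPL58, chr17:75012420-75012669, plus strand: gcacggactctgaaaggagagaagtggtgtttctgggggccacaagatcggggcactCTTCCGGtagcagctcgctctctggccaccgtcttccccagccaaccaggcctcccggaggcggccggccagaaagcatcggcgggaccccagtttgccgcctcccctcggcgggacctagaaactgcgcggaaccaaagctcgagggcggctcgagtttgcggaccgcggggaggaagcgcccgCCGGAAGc
MRPS18A, chr6:43687792-43688041, minus strand: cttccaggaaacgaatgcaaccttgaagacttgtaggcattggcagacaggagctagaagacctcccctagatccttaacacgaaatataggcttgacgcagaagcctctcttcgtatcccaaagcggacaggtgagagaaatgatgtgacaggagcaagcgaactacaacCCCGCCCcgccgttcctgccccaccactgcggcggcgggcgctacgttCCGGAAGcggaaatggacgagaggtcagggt
MRPS10, chr6:42217866-42218111, minus strand: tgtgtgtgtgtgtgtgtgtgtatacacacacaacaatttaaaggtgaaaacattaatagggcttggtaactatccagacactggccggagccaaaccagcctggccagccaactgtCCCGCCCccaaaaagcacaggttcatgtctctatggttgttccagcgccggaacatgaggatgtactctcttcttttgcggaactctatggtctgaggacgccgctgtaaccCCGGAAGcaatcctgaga
Beside these sequences, the median log2 ratio of treated over control HepG2 was -0.23 for the 28 genes with the ETS-type motif and -0.14 for the 38 without it, and in PLC/PRF/5 it was -0.14 and -0.15. In HepG2 the medians with and without a match were -0.17 and -0.14 for SP1. They went the other way for NRF1 (-0.14 and -0.17), YY1 (-0.13 and -0.17) and the E-box (-0.14 and -0.17). For the sterol response element, in 2 genes, they were -0.23 and -0.17. In PLC/PRF/5 the order for this element was reversed, at -0.07 and -0.14. The PLC/PRF/5 medians with and without a match were -0.14 and -0.15 for SP1 and -0.13 and -0.15 for NRF1. They were -0.11 and -0.18 for YY1, and -0.13 and -0.18 for the E-box. A link between motif and response was not tested.

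Transcript levels of the 75 genes spanned a wide range in each of the 4 libraries. Their median was 12.3 and 10.6 FPKM in control and treated HepG2, and 11.4 and 10.1 in control and treated PLC/PRF/5, against medians of 4.15 to 5.14 FPKM over all measured genes. Together, with 95% Clopper-Pearson intervals, they took 0.294% (0.291 to 0.297) and 0.256% (0.254 to 0.259) of all fragments in control and treated HepG2, and 0.271% (0.268 to 0.273) and 0.243% (0.240 to 0.245) in control and treated PLC/PRF/5. Over nuclear fragments alone these shares were 0.353%, 0.354%, 0.344% and 0.338%, and the intervals of the HepG2 libraries (0.350 to 0.356 and 0.351 to 0.357) overlapped.

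In the large subunit, the highest mean levels were those of MRPL45, a subunit at the exit of the peptide tunnel that faces the inner membrane, MRPL18, which contacts the ribosome's central protuberance, and MRPL3, a core protein near the peptidyl transferase centre. MRPL45 (chromosome 17, 38297023 to 38323218, in GENCODE coordinates on GRCh38 as for all genes below) stood at 51.8 FPKM in control and treated HepG2, and at 36.9 and 37.0 in control and treated PLC/PRF/5. MRPL18 was at 52.0, 41.7, 38.5 and 37.1 FPKM in the same order of libraries, and MRPL3 at 42.3, 38.9, 36.5 and 31.1. The lowest members of the large subunit were MRPL46, with 1.09, 0.913, 1.17 and 0.874 FPKM, MRPL23, with 4.26, 4.72, 3.27 and 2.67, and MRPL48, with 3.35, 2.98, 5.94 and 5.14. MRPL46 lay nearest the minimum of 1 FPKM and passed it only in the 2 control libraries.

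In the small subunit, MRPS35, MRPS34 and MRPS18B, which were listed here as without a bacterial counterpart, had the highest mean levels. MRPS35 was at 39.8, 37.8, 47.8 and 37.1 FPKM, and MRPS34 at 35.6, 33.1, 40.6 and 35.3. The lowest members were MRPS18C, at 2.16, 1.87, 2.11 and 1.83 FPKM, MRPS17, a bacterial-type protein, at 2.76, 2.25, 4.27 and 3.11, and MRPS33 at 3.07, 2.74, 3.80 and 3.38. The plot of levels by gene shows the 4 libraries close together for most genes and apart for a few, of which MRPL24 is the clearest.

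**Figure D1:**
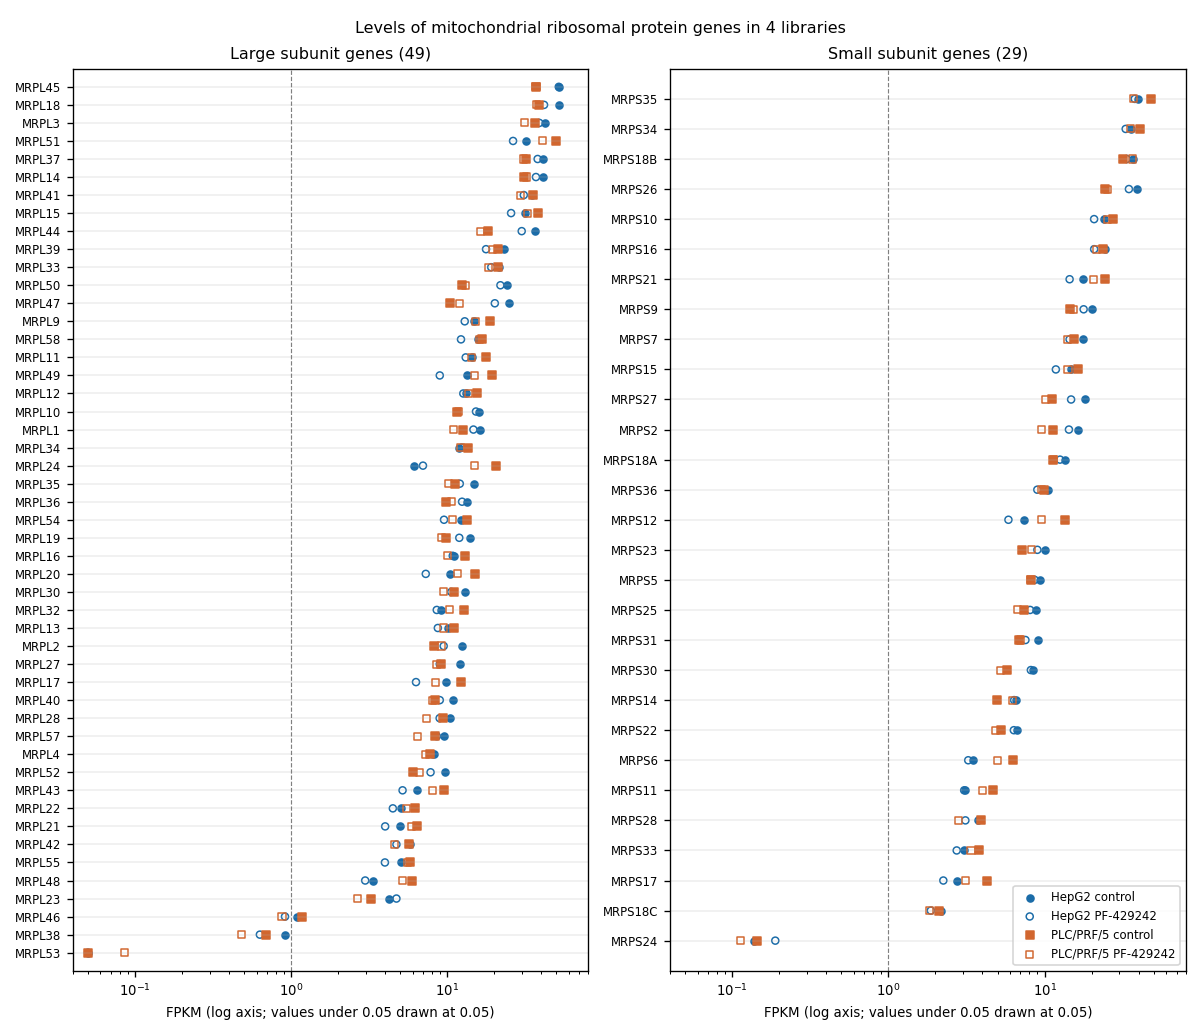
FPKM of each of the 78 genes on a log axis in the HepG2 control (filled circle), treated HepG2 (open circle), PLC/PRF/5 control (filled square) and treated PLC/PRF/5 (open square), ordered by mean level, with the dashed line at 1 FPKM. MRPL45 and MRPS35 lead the 2 subunits, and MRPL38, MRPL53 and MRPS24 lie below the line in every library; values under 0.05 are drawn at 0.05.

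The median large subunit gene was higher than the median small subunit gene in each library on the deposited scale. The medians were 13.1 and 10.3 FPKM in untreated and 10.8 and 8.99 in treated HepG2. In PLC/PRF/5 they were 12.5 and 10.5 without and 10.8 and 9.51 with the inhibitor. The ratio of the medians was 1.27, 1.21, 1.18 and 1.14 in that order. It turned to 0.891 and 0.951 in the HepG2 libraries when the minimum was raised to 5 FPKM, and was 1.06 and 1.08 there when fragments were divided by the length of the principal transcript in place of the whole gene. Which subunit had the higher median in HepG2 therefore depended on the minimum level.

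The 3 genes that missed the minimum were MRPL38, MRPL53 and MRPS24. MRPL38 was at 0.914, 0.630, 0.689 and 0.482 FPKM, with 30 to 56 fragments a library. MRPS24, a bacterial-type small subunit protein, had 6, 10, 8 and 5 fragments. MRPL53 had 0 fragments in 3 libraries, which allows up to 3 in each, and 2 in treated PLC/PRF/5. The level of each gene was set beside its exon overlap with other genes. In 8 of the 78 genes, other genes' exons covered at least 50% of the principal transcript: MRPS24 (85.7%, by a readthrough gene), MRPS18C (78.9%, by ABRAXAS1 on the opposite strand), MRPL46 (71.1%), MRPL12 (68.2%), MRPL38 (67.8%), MRPS18A (56.9%, by RSPH9), MRPS28 (55.4%) and MRPL53 (52.3%, by CCDC142). The 5 genes with the lowest mean level were all among these 8. Median mean level was 1.50 FPKM over the 8 and 11.5 over the other 70, whose lowest member, MRPS17, averaged 3.10. CCDC142 itself was at 3.71, 3.07, 3.60 and 3.84 FPKM. Whether the counting assigned shared fragments to neither gene was not tested, and the values of these 8 genes are uncertain. The plot of level against overlap places MRPL12 and MRPS18A, at a mean of 13.8 and 12.2 FPKM, among the other genes despite their overlap.

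**Figure D2:**
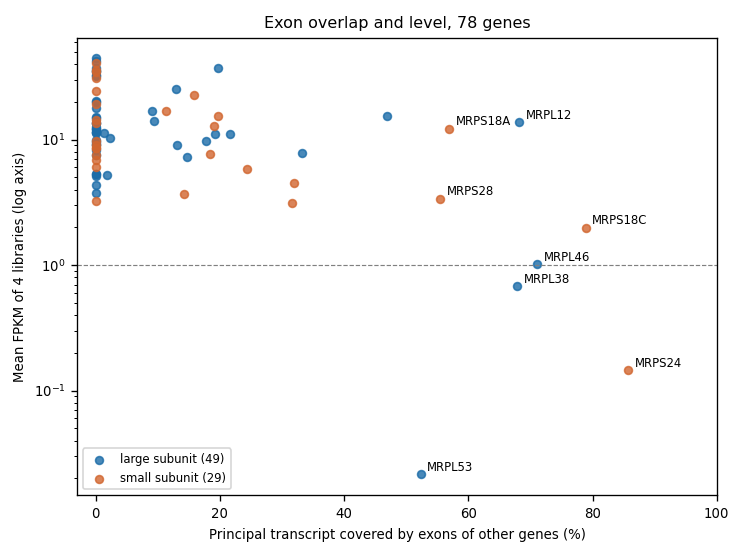
Mean FPKM over the 4 libraries (log axis) of each of the 78 genes against the percent of its principal transcript covered by exons of other genes, for large (49) and small (29) subunit genes, with the dashed line at 1 FPKM. The 8 genes at or above 50% are named, and the 5 with the lowest levels are all among them.

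Copies elsewhere in the genome were few at the RNA level. Of 25 other genes that share these name stems, 23 pseudogenes and 2 antisense genes, 2 reached 1 FPKM in any library. MRPL45P2, a pseudogene of MRPL45, was at 3.19, 3.09, 3.08 and 2.92 FPKM, and how reads shared by the pair were counted is not known, so the MRPL45 level is uncertain. MRPL53P1 was at 0.187, 0.462, 0.293 and 1.85 FPKM, above MRPL53 itself in each library.

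In HepG2, treatment with PF-429242 was followed by small differences in these genes, and MRPL17, at 0.638 of its control FPKM, was the only member past 1.5-fold by the plain ratio. On the deposited scale 72 of 75 had a log2 ratio below 0 (80.4% of all measured genes did), with a median of -0.17 against -0.16, and this direction was lost on median-of-ratios scaling (0.01), quantile normalisation (0.01) and nuclear totals (0.01). On the scale of log2(FPKM + 1) 0 of 75 reached 1.5-fold in either direction, where 3.81% of all measured genes were lower and 1.47% higher. Rescaling to equal sums of FPKM moved the values the other way, with 75 of 75 below 0, a median of -0.49 against -0.43 over all measured genes, and 18 members lower at 1.5-fold. The shares of all measured genes below 0 and at 1.5-fold after that rescaling were not counted. At a log2 difference of 0.32, 8 genes, all of the large subunit, were lower, or 10.7% against 18.6%, and 0 were higher (3.22%). Counting intervals lay above 1 for 0 members (3.31%). The summed fragments of the 75 genes gave a ratio of 0.872 (95% counting interval 0.861 to 0.883) over all fragments and 1.00 (0.991 to 1.02) over nuclear fragments. Counting intervals here are exact conditional binomial intervals of the fragments in a pair of libraries, and they cover counting error only.

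The lowest HepG2 ratio was that of MRPL17 (chromosome 11, 6680782 to 6683401), a bacterial-type protein near the tunnel exit. It stood at 9.88 FPKM (376 fragments) in the control and 6.30 (292) in treated HepG2, a ratio of 0.638 (0.546 to 0.746). Its level was also lower in treated PLC/PRF/5, at 8.43 against 12.2 FPKM (326 and 593 fragments; ratio 0.692, 0.603 to 0.794). The next lowest were MRPL49 (chromosome 11, 65122183 to 65127371), a subunit without bacterial counterpart, and MRPL20 (chromosome 1, 1401908 to 1407313), a bacterial-type protein that binds the large ribosomal RNA early in assembly. MRPL49 was at 13.3 and 8.95 FPKM in control and treated HepG2 and at 19.2 and 15.0 in PLC/PRF/5. MRPL20 was at 10.4 and 7.28 FPKM in HepG2 and 15.1 and 11.7 in PLC/PRF/5. MRPL27, which reaches towards the peptidyl transferase centre, was at 12.1 and 8.95 FPKM in HepG2 (log2 ratio -0.39) and at 9.14 and 8.48 in PLC/PRF/5 (-0.10).

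MRPL17, MRPL49 and MRPL20 were the only members whose counting interval stayed below 1 in both lines over nuclear fragments, a pattern shared by 8.02% of all measured genes. Their nuclear ratios were 0.735 (0.628 to 0.858), 0.773 (0.690 to 0.865) and 0.808 (0.707 to 0.924) in HepG2, and 0.759, 0.854 and 0.850 in PLC/PRF/5. Over nuclear fragments the HepG2 interval lay below 1 for 5 members (17.2% of all measured genes), these 3 with MRPL27 and MRPS27, and above 1 for 7 (15.6%), MRPL4, MRPL23, MRPL24, MRPL34, MRPL45, MRPS30 and MRPS35. The mitochondrial share moved with treatment in both lines, and its part in single genes was not tested.

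At the other end in HepG2, the 4 highest deposited ratios were those of MRPL24, MRPL23, MRPL34 and MRPL45, all of the large subunit. MRPL24 (chromosome 1, 156737303 to 156741590), a bacterial-type protein beside the tunnel exit, was at 6.10 and 6.99 FPKM, with a log2 ratio of 0.17 and an interval of the ratio of 0.938 to 1.40. MRPL23, which forms part of the tunnel exit, had a log2 ratio of 0.12, and MRPL34, a small bacterial-type protein, 0.06. For MRPL45 the ratio was 1.00 (0.933 to 1.07). Each of the 4 intervals held 1 on the deposited scale and lay above 1 over nuclear fragments.

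**Figure D3:**
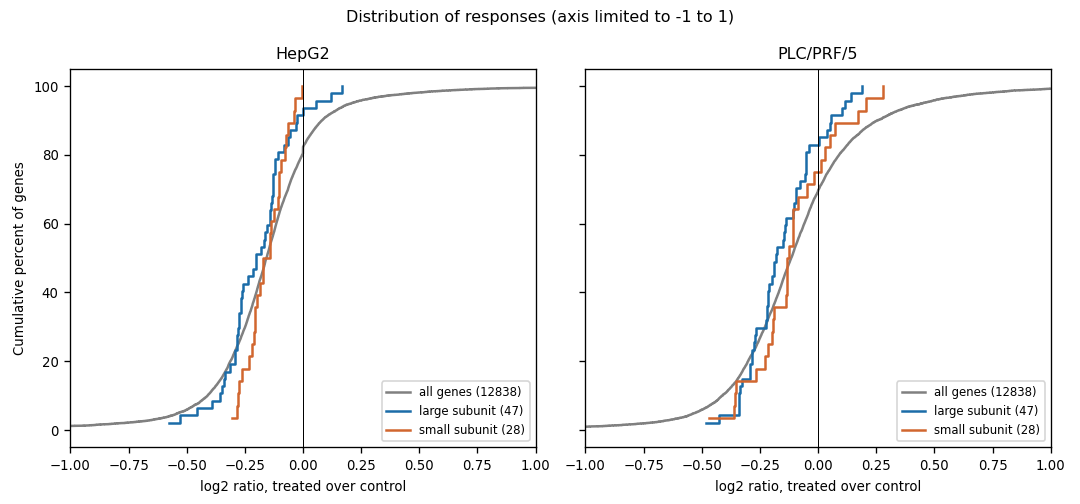
Cumulative percent of genes by log2 ratio of (FPKM + 1), treated over control, in HepG2 (left) and PLC/PRF/5 (right) for all 12838 measured genes (grey), 47 large subunit genes (blue) and 28 small subunit genes (orange), on an axis limited to -1 to 1. The subunit curves have medians of -0.20 and -0.16 against -0.16 in HepG2 on the deposited scale, and no member passes 1.5-fold on this scale; the medians move to -0.02 and 0.02 on nuclear totals.

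In PLC/PRF/5 members lay on either side of 0. On the deposited scale 60 of 75 genes had a ratio below 0 (69.4% of all measured genes), with a median of -0.14 against -0.12, and the median was -0.01, -0.01 and -0.03 on median-of-ratios scaling, quantile normalisation and nuclear totals. After rescaling to equal sums of FPKM it was -0.44 against -0.38, with 16 members lower at 1.5-fold, a share not counted over all measured genes. Without that rescaling 0 reached 1.5-fold here too, where 3.68% of all measured genes were lower and 3.13% higher. At a log2 difference of 0.32, 11 were lower, or 14.7% against 17.5%, and 0 higher (7.79%). Above 0 lay 15 genes (30.4%). The summed ratio was 0.897 (0.886 to 0.909) over all and 0.983 (0.971 to 0.995) over nuclear fragments. The nuclear interval lay below 1 for 15 genes (23.6% of all measured genes) and above 1 for 11 (20.3%). The part of the low mitochondrial ribosomal RNA of the treated library in these values was not tested.

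After MRPL17, the lowest ratios in PLC/PRF/5 were those of MRPS12, MRPL24 and MRPS28. MRPS12 (chromosome 19, 38930548 to 38933162), the small subunit protein at the decoding centre, was at 13.5 FPKM in the control and 9.50 after treatment, a ratio of 0.703 (0.614 to 0.803). In HepG2 it was at 7.36 and 5.87 FPKM, a ratio of 0.797 (0.668 to 0.9499). MRPL24 was at 20.4 and 14.9 FPKM, a ratio of 0.733 (0.649 to 0.826), and MRPS28, whose exons are shared, had a log2 ratio of -0.36 from 152 and 87 fragments.

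The 4 highest ratios in PLC/PRF/5 were those of MRPS14, MRPS18B, MRPL47 and MRPS23. MRPS14 (chromosome 1, 175010789 to 175023425), a bacterial-type protein of the small subunit head, was at 4.99 FPKM in the control and 6.27 after treatment, a ratio of 1.255 (1.06 to 1.49), while in HepG2 it was at 6.59 and 6.38. MRPS18B was at 31.7 and 36.6 FPKM (ratio 1.16, 1.07 to 1.26), and MRPS23 at 7.21 and 8.24 (1.14, 1.04 to 1.254). These 3 small subunit genes were the only members whose deposited interval lay above 1 in a treated library, against 11.2% of all measured genes in PLC/PRF/5. MRPL47, at 10.4 and 11.99 FPKM, had an interval of 0.976 to 1.36 that held 1.

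By symbol, large subunit genes had the lower median ratio in each line on the deposited scale and on nuclear totals. In HepG2 the median log2 ratio was -0.20 over 47 large subunit genes and -0.16 over 28 small subunit genes, and in PLC/PRF/5 it was -0.18 and -0.13; on nuclear totals these became -0.02 and 0.02, and -0.06 and -0.0037. On median-of-ratios scaling and quantile normalisation the small subunit median lay above 0 in both lines and the large subunit median below 0. With MRPS30 and MRPS18A, which sit in the large subunit, counted there, the deposited medians were -0.18 and -0.17 in HepG2 and -0.18 and -0.13 in PLC/PRF/5, so the gap in HepG2 nearly closed. Counting intervals lay below 1 for 31 large and 13 small subunit genes in HepG2 (48.3% of all measured genes), and for 24 and 12 in PLC/PRF/5 (40.8%). The summed ratio over nuclear fragments was 0.995 (0.979 to 1.01) for the large and 1.02 (0.999 to 1.04) for the small subunit in HepG2. In PLC/PRF/5 it was 0.967 (0.951 to 0.982) and 1.01 (0.9896 to 1.03), so the large subunit intervals reached lower than those of the small subunit there. Genes are not replicates and each line has 1 pair of libraries, so the difference between the subunits was not tested.

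The genes were also divided by a fixed list of subunits with a bacterial counterpart, with large and small taken from the symbols. Among large subunit genes, the 30 with a bacterial counterpart had medians of -0.17 in HepG2 and -0.18 in PLC/PRF/5, and the 17 without had -0.26 and -0.18. Among small subunit genes the medians were -0.20 and -0.19 for 15 with a counterpart, and -0.12 and -0.09 for 13 without. These 13 include MRPS30, MRPS18A and MRPS36, whose proteins are placed outside the small subunit. MRPS18B is also among the 13. MRPS18A and MRPS18B are paralogs of MRPS18C, so the list may not follow descent. Below the all-gene median in HepG2 lay 16 of 30, 11 of 17, 10 of 15 and 4 of 13 genes in that order, and in PLC/PRF/5 19, 10, 11 and 4.

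Several members have roles of their own. MRPL12, the stalk protein that also binds the mitochondrial RNA polymerase, was at 13.2, 12.7, 15.5 and 13.6 FPKM, with the reservation that its exons are shared. MRPL10, at the base of the stalk, was at 16.0, 15.3, 11.5 and 11.9 FPKM. MRPL58, a peptidyl-tRNA hydrolase built into the ribosome that can free stalled chains, was at 15.8 and 12.2 FPKM in HepG2 (ratio 0.777, 0.656 to 0.919) and at 16.6 and 16.0 in PLC/PRF/5. MRPS30 and MRPS18A, which keep small subunit symbols but sit in the large subunit, were at 8.40, 8.17, 5.74 and 5.25 FPKM and at 13.6, 12.6, 11.4 and 11.5. MRPS36, which is now placed in the oxoglutarate dehydrogenase complex, was at 10.5, 8.98, 9.87 and 9.52 FPKM. The paralogs MRPS18A, MRPS18B and MRPS18C had log2 ratios of -0.10, -0.14 and -0.14 in HepG2, and of 0.01, 0.20 and -0.14 in PLC/PRF/5.

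Across the lines, 57 of the 75 genes had a ratio below 0 in both (59.0% of all measured genes). A further 15 were below 0 in HepG2 and above 0 in PLC/PRF/5, 3 the reverse, and 0 were above 0 in both. Of all measured genes 17.7% were above 0 in HepG2 and 30.4% in PLC/PRF/5. Their shares in the patterns of 15, 3 and 0 were not counted, so those counts are descriptions only. With intervals below 1 in both there were 22 genes, or 29.3% against 26.4% of all measured genes, 16 of them of the large subunit. Over the 75 genes the log2 ratios of the lines had a Pearson r of 0.10 and a Spearman rho of 0.05, given as a description, since the genes of a library share its depth, and over all measured genes r was 0.16. The plot of the lines' responses shows which genes were low in both.

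**Figure D4:**
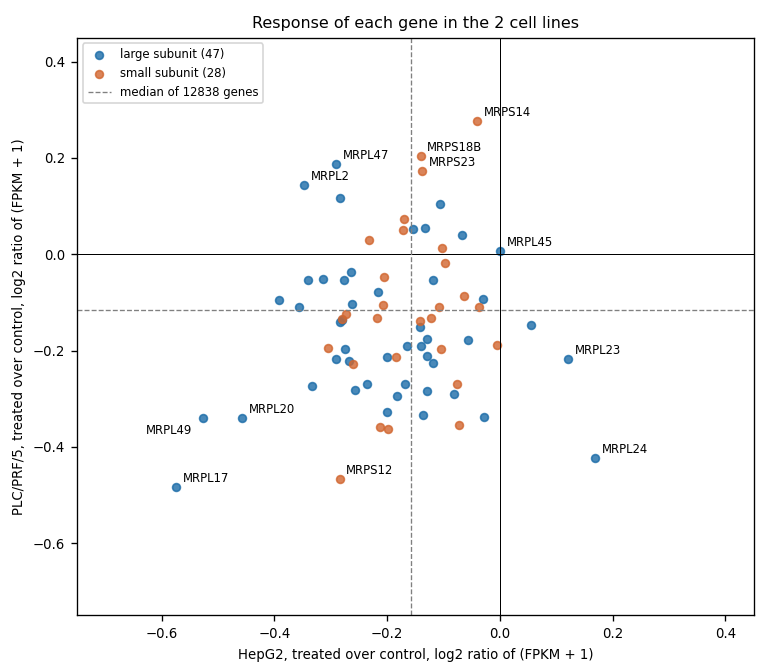
Log2 ratio of (FPKM + 1), treated over control, in HepG2 (horizontal axis) and PLC/PRF/5 (vertical axis) for 47 large (blue) and 28 small (orange) subunit genes, with dashed lines at the median of all 12838 measured genes. Most points lie below and left of 0 on the deposited scale and around the dashed lines, MRPL17, MRPL49 and MRPL20 are low in both lines, and MRPL24 stands at 0.17 in HepG2 and -0.42 in PLC/PRF/5.

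The largest differences between the responses were in MRPL24, with a log2 ratio 0.59 higher in HepG2 than in PLC/PRF/5, followed by MRPL23 (0.34), MRPL16 (0.31) and MRPS35 (0.28). In the opposite direction were MRPL2, a core protein of the peptidyl transferase centre (-0.49), MRPL47 (-0.48), MRPL52 (-0.40) and MRPS18B (-0.34). MRPL2 was at 12.3 and 9.48 FPKM in HepG2 and at 8.18 and 9.14 in PLC/PRF/5, and MRPL52 at 9.73 and 7.82, and at 6.03 and 6.62. Over nuclear fragments, MRPL24 and MRPS35 had intervals above 1 in HepG2 and below 1 in PLC/PRF/5, a pattern of 1.94% of all measured genes. For MRPL24 the nuclear ratios were 1.32 (1.08 to 1.61) and 0.803 (0.711 to 0.905), and for MRPS35 1.09 (1.01 to 1.18) and 0.852 (0.793 to 0.916). MRPL45 was the only member above 1 in both lines on that scale, with intervals of 1.07 to 1.23 and 1.01 to 1.19, as were 7.64% of all measured genes, and 0 members were below 1 in HepG2 and above 1 in PLC/PRF/5 (2.3%).

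A treatment effect shared by the lines was fitted with limma to log2(FPKM + 1), where cell line was a blocking term. This fit has 1 residual degree of freedom and takes the 2 lines as replicates. It called 0 of the 75 genes and 0.0% of the 12838 measured genes at a Benjamini-Hochberg adjusted p under 0.05. At an unadjusted p under 0.05 in limma there were 15 and 2488. The limma-voom fit on the recovered fragments also called 0. It had 13 of the 75 members and 3085 of 12798 genes at an unadjusted p under 0.05. The smallest adjusted p among the members was 0.193 (limma), shared by MRPL17 (effect -0.53, SE 0.08), MRPL49 (-0.43, SE 0.09) and MRPL20 (-0.40, SE 0.08), each lower in 2 of 2 lines. After rescaling to equal sums of FPKM 62 of the 75 were called lower, as were 5980 of 12760 genes.

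More members passed 1.5-fold between the lines than after treatment. Between the controls, on the scale of log2(FPKM + 1), 6 members were at least 1.5-fold higher in HepG2 (18.9% of all measured genes) and 5 lower (22.5%), or 8.0% and 6.7% of the members. After rescaling to equal sums of FPKM the split was 17 higher and 2 lower, and that of all measured genes was not counted. The median log2 ratio of HepG2 over PLC/PRF/5 was 0.08 over the 75 genes, with 33 below 0 (53.2%), against -0.05 over all measured genes. It was 0.01 on nuclear totals, where that of all genes was -0.13. Counting intervals lay above 1 for 33 members (35.4%) and below 1 for 23 (41.1%), and over nuclear fragments for 30 (31.7%) and 27 (45.2%). By subunit the median was 0.03 for the large subunit and 0.12 for the small, and on nuclear totals -0.05 and 0.05. With MRPS30 and MRPS18A counted in the large subunit the order turned, to 0.08 and 0.06. These comparisons share the control libraries with the treatment ratios above.

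MRPL24 differed most between the lines, at 6.10 FPKM (173 fragments) in the HepG2 control and 20.4 (739) in the PLC/PRF/5 control, a ratio of 0.299 (0.252 to 0.354). The treated libraries were at 6.99 and 14.9 FPKM, a ratio of 0.468 (0.398 to 0.549), so both PLC/PRF/5 libraries lay above both HepG2 libraries. MRPS12 had a control ratio of 0.545 (0.470 to 0.630), MRPS6, a bacterial-type small subunit protein, 0.556 (0.477 to 0.646) from 3.47 and 6.25 FPKM, MRPL48 0.565 (0.484 to 0.658) and MRPL51 0.640 (0.585 to 0.700). MRPL51 was at 31.7 and 26.4 FPKM in HepG2 and at 49.6 and 40.6 in PLC/PRF/5.

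Higher in HepG2 were MRPL47, MRPL44, MRPL50, MRPS26, MRPS27 and MRPL52. MRPL47 (chromosome 3, 179588285 to 179604654), a bacterial-type protein, was at 24.9 FPKM in the HepG2 control and 10.4 in the PLC/PRF/5 control, a ratio of 2.39 (2.08 to 2.76), and at 20.2 and 11.99 in the treated libraries. MRPL44 (chromosome 2, 223957404 to 223967714), which has a ribonuclease III fold, was at 36.7 and 18.2 FPKM in the controls and 30.0 and 16.4 after treatment, a control ratio of 2.02 (1.83 to 2.23). MRPL50 was at 24.1 and 12.5 FPKM in the controls (ratio 1.93, 1.77 to 2.10), and MRPS26 at 39.2 and 24.5 (1.60, 1.42 to 1.79). MRPS27, a pentatricopeptide repeat protein, was at 18.2 and 11.2 FPKM. In these genes the HepG2 libraries lay above the PLC/PRF/5 libraries with and without the inhibitor, as the plot of line ratios shows.

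**Figure D5:**
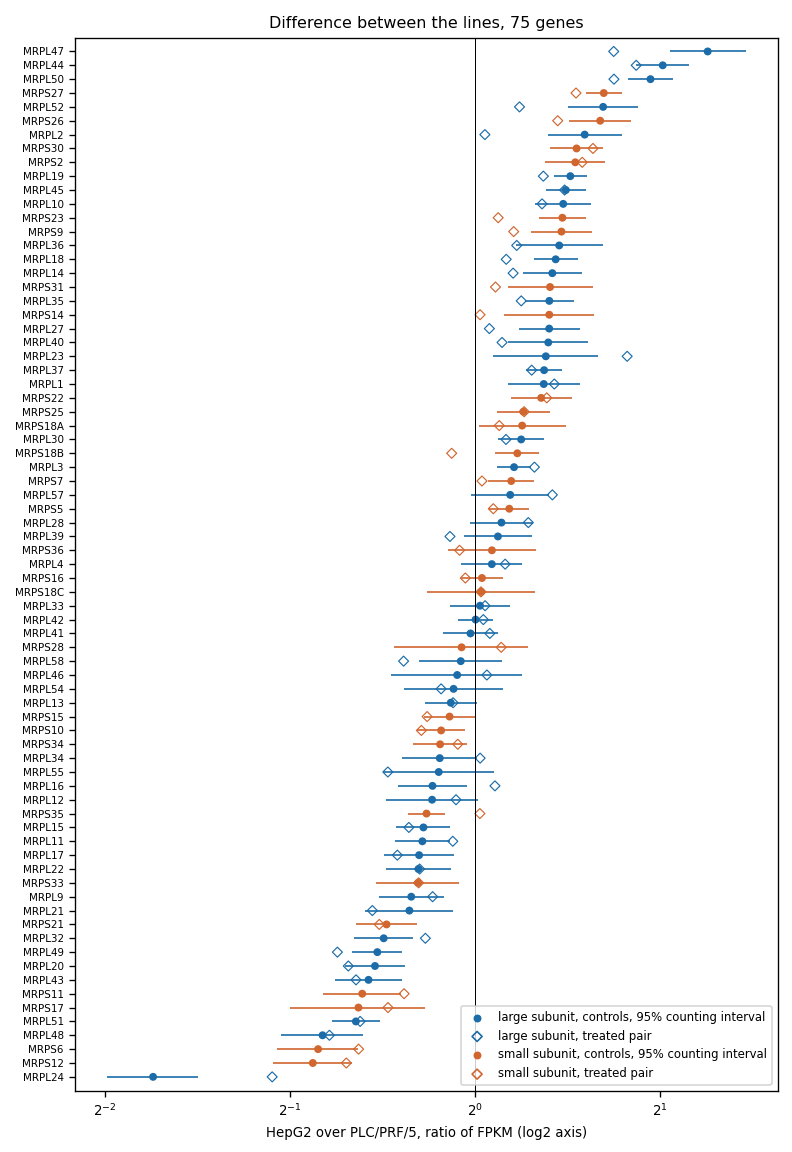
Ratio of FPKM, HepG2 over PLC/PRF/5 (log2 axis), for each of the 75 genes: points with bars are the controls with their 95% counting interval, diamonds the treated pair, in blue for the large and orange for the small subunit. MRPL47, at 2.39 in the controls, and MRPL24, at 0.299, are the extremes, and the diamonds of most genes lie near their points.

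The limma fit with treatment as a block takes the treated and untreated pairs as replicates of the line difference, with 1 residual degree of freedom. In it 19 members were higher in HepG2 (23.1% of all measured genes) and 16 lower (31.8%) at a Benjamini-Hochberg adjusted p under 0.05, or 25.3% and 21.3% of the members. Of these, 13 of the higher and 11 of the lower belonged to the large subunit. The smallest adjusted p-values (limma) were 0.0040 for MRPL44 (log2 difference 0.90, SE 0.08) and 0.0052 for MRPL50 (0.80, SE 0.08), both higher in HepG2 in 2 of 2 pairs. MRPL51 followed with an adjusted p of 0.0055 in limma (-0.62, SE 0.07), then MRPL24 with 0.0072 (-1.29, SE 0.17) and MRPS12 with 0.0073 (-0.70, SE 0.09), each lower in HepG2 in 2 of 2 pairs. MRPL47 had a difference of 0.94 (SE 0.14, limma adjusted p 0.0094), and MRPL52 missed the threshold (0.41, SE 0.13, limma adjusted p 0.057). The count of 35 was 14 when treatment was not a block, where 2345 of all measured genes were called higher and 3093 lower. The split of 19 higher and 16 lower was 27 and 10 after quantile normalisation and 34 and 9 after rescaling to equal sums of FPKM. The split over all genes moved too, from 2971 higher and 4078 lower to 3756 and 3497 of 12876, and to 3932 and 2673 of 12760. Of the 3 measured markers of other cell types, LYZ and ACTA2 were also higher in HepG2 in this fit. LYZ was at 462 to 504 against 179 to 209 FPKM, and ACTA2 at 3.47 to 5.53 against 1.41 to 1.76 FPKM. PECAM1 was not called and had a log2 difference of -0.25. Of the 8 hepatocyte markers, 7 were called higher and 1 lower in HepG2. The part of these marker differences in the result was not tested.

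Genes that work with these subunits, from lists of mitochondrial translation, were read in the same way. The 5 measured subunits with other symbols had medians of -0.18 in HepG2 and -0.04 in PLC/PRF/5. DAP3, a small subunit GTPase, was at 16.0, 14.8, 19.7 and 18.1 FPKM, and PTCD3, a pentatricopeptide repeat protein of the small subunit, at 18.1, 15.9, 13.0 and 12.6. AURKAIP1 was at 24.6, 19.5, 23.8 and 23.7 FPKM, CHCHD1 at 10.4, 7.46, 11.6 and 10.2, and GADD45GIP1, a large subunit protein, at 13.0, 11.4, 11.4 and 11.5. On the same scale 0 of the 5 reached 1.5-fold in either line, and the limma fit called 0 for treatment and 1 in each direction between the lines.

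Among 28 measured genes of ribosome assembly and ribosomal RNA modification, the medians were -0.17 and -0.09, and 1 reached 1.5-fold on the scale of log2(FPKM + 1). That was MPV17L2, an assembly factor of the large subunit, at 5.43 and 3.04 FPKM in HepG2 (ratio 0.559, 0.445 to 0.701) and 5.32 and 4.30 in PLC/PRF/5. TRMT2B, which methylates mitochondrial RNA, was at 3.79 and 2.35 FPKM in HepG2 (ratio 0.620, 0.512 to 0.750) and at 6.36 and 4.31 in PLC/PRF/5 (0.678, 0.586 to 0.782). MRM1, a methyltransferase of the large ribosomal RNA, was at 2.86, 3.69, 7.02 and 5.12 FPKM, and TFB1M, which methylates the small ribosomal RNA, at 8.79, 6.69, 3.76 and 4.33. The limma fit called 0 of the 28 for treatment, and 5 higher and 5 lower in HepG2 between the lines.

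The 18 measured translation factors and their partners had medians of -0.10 and -0.04, with 0 at 1.5-fold. GFM2, a ribosome recycling factor, had log2 ratios of -0.24 and -0.22 in HepG2 and PLC/PRF/5, and the elongation factor GFM1 had -0.10 and -0.27. The transfer RNA modification enzymes GTPBP3 and TRMU had -0.30 and 0.13, and -0.31 and -0.10. Limma called 0 of the 18 for treatment and 4 higher in HepG2.

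For comparison, 83 measured cytosolic ribosomal protein genes had medians of -0.12 in HepG2 and -0.03 in PLC/PRF/5, and 76 nuclear genes of the respiratory chain and ATP synthase had -0.23 and -0.21. The mitochondrial ribosomal protein genes, at -0.17 and -0.14, lay between these groups in both lines. Between the controls the 3 medians were 0.28, -0.32 and 0.08 in the order cytosolic ribosome, respiratory chain and mitochondrial ribosome. These medians are descriptions with no test, and the genes of each group share their libraries.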

How the data were processed

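RNA-seq of 4 libraries, 1 per group, was analysed. The deposited table holds FPKM values per gene. Alignment used TopHat2 and the GRCh38 build, per the submitters' processing notes. The sources used here do not name the counting program, its use of strand or the annotation. Symbols, gene types and lengths came from GENCODE release 29, which holds 32354 of the 32479 gene identifiers. No other per-sample columns were left out.

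FPKM values deposited by the authors were turned back into whole fragments where they were multiples of what 1 fragment is worth, within 0.001. This held at the GENCODE length for 24452 genes, at the nearest fitting length for 7905, and for 122 no length was found. All 78 ribosomal protein genes were recovered, 43 of them at a nearest length.

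Genes that reached 1 FPKM in 2 or more libraries were kept. Log2 ratios are differences of log2(FPKM + 1), which understates the change of low genes. Ratios printed with intervals are plain ratios of fragments over the library or nuclear total, with nothing added. Ratio intervals are exact conditional binomial, share intervals Clopper-Pearson, both at 95%, and cover counting error only. limma 3.58.1 in R 4.3.3 fitted cell line and treatment over all genes with Benjamini-Hochberg adjustment. No label says that the libraries come from repeated cultures, so p-values measure only the spread between these libraries. Python 3.11.15, pandas 2.3.3, NumPy 2.4.6 and SciPy 1.17.1 did the rest. The procedures were tested on simulated data.

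The members, lists and tests were chosen with earlier results of these data known. Genes named are the 3 highest and 3 lowest of each subunit by mean level, the 4 highest and lowest ratios in each comparison, the 4 members whose responses differed most each way, set role genes, and from the other lists all 5 other subunits and up to 4 genes with the largest mean absolute change. MRPS10, MRPL45P2 and MRPL53P1, and further genes with special counts or overlap, were named after their values were seen. Alternatives varied the pseudocount, filter, fold threshold, scaling, fit and subunit assignment.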

Additional observations from a re-analysis of the deposited data

Results flagged for a closer look

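In MRPS18B the log2 ratio was 0.34 lower in HepG2 than in PLC/PRF/5 (difference -0.34), with a counting interval below 1 in HepG2 and above 1 in PLC/PRF/5 on the deposited scale. MRPS23 showed the same opposed directions, with a difference of -0.31. The share of all measured genes with such opposed deposited intervals was not counted. The difference between the lines was not tested for either gene, since each line has 1 pair of libraries. Over nuclear fragments the HepG2 ratios of both were 1.04, with intervals of 0.959 to 1.13 and 0.952 to 1.13 that held 1. In PLC/PRF/5 both nuclear intervals lay above 1, as for 20.3% of all measured genes. On that scale 0 members were below 1 in HepG2 and above 1 in PLC/PRF/5, against 2.3% of all measured genes.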

How the results depend on the processing

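With 1 library a group, counting error is known and culture-to-culture spread is not. No pairing of replicates within a line was possible because the labels give 1 library a group. The blocks in the limma fits are the cell line and the treatment. The cause of each move was not tested. Adding 0.1 FPKM gave 1 member at 1.5-fold in HepG2. At a log2 difference of 0.32 there were 8 in HepG2, 11 in PLC/PRF/5 and 37 between the controls. The 37 were 24 higher in HepG2 (29.4% of all measured genes) and 13 lower (34.8%), or 32.0% and 17.3% of the members. Between the controls 2-fold gave 2 and adding 5 FPKM gave 4. The shares of all measured genes at 2-fold and after adding 0.1 or 5 FPKM were not counted. Rescaling to equal sums of FPKM gave 18, 16 and 19, without a share counted over all measured genes. It gave medians for the large and small subunit of -0.51 and -0.46 in HepG2, -0.46 and -0.41 in PLC/PRF/5, and 0.24 and 0.33 between the controls. Adding 5 FPKM gave -0.14 and -0.10, then -0.11 and -0.083, and 0.089 for the small subunit between the controls. Median-of-ratios scaling gave -0.015 and 0.027 in HepG2, -0.039 and 0.022 in PLC/PRF/5, and 0.052 for the large subunit between the controls. Quantile normalisation gave -0.0079 and 0.024, -0.034 and 0.014, and 0.066 and 0.17. Nuclear totals gave -0.017 and 0.024, -0.064 and -0.0037, and -0.054 and 0.049. The sign of the small subunit median thus turned in HepG2 under 3 scalings and in PLC/PRF/5 under the first 2 of these, and that of the large subunit between the controls under nuclear totals.

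The small subunit median between the controls was 0.083 with no filter and 0.22 at 5 FPKM. With MRPS30 and MRPS18A in the large subunit the medians were 0.081 and 0.059, and without the genes of shared exons, a choice made after seeing the data, 0.081 and 0.17. The limma calls between the lines numbered 22 with no filter, where all genes gave 2333 higher and 3845 lower. They numbered 23 without a variance trend (2747 and 3914 over all genes) and 14 without the block (2345 and 3093). Those for treatment numbered 62 after rescaling to equal sums, where 5980 of all genes were lower. The ratio of large to small subunit was 1.95, 1.91, 1.90 and 1.84 from summed FPKM, which the numbers of genes summed (47 and 28) largely set, in the HepG2 control, treated HepG2, PLC/PRF/5 control and treated PLC/PRF/5, and 0.891, 0.951, 1.11 and 1.08 at 5 FPKM. With no filter it was 1.23, 1.18 and 1.23 in the first 3 of these libraries, and per kilobase of principal transcript, also added after seeing the data, 1.06, 1.08 and 1.103. Without genes of shared exons it was 1.24 in the HepG2 control and 1.11 in the PLC/PRF/5 control, and 1.16 there with MRPS30 and MRPS18A in the large subunit.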
